A study of Mus musculus with 12 samples.

Results

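The 9 genes described here encode 6 signal transducers and activators of transcription (Stat2, Stat3, Stat4, Stat5a, Stat5b and Stat6) and 3 Janus kinases (Jak1, Jak2 and Jak3). They were chosen by name and located by the GENCODE mouse M21 annotation, out of 21938 protein-coding genes on chromosomes 1 to 19, X and Y, and the other members of both families were not analysed here. A peak was counted for a gene when it touched the gene body or lay within 3 kb of any annotated start site. By that rule 43 of the 19773 peaks of MOF, a lysine acetyltransferase of histone H4 also named KAT8, belonged to these genes in visceral white adipose tissue of Mof+/+ mice. In Mof+/- mice, 1 peak of 731 did.

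The chromatin came from C57BL/6 mice of 8 weeks on standard diet. Mof+/+ mice were labelled wild type and Mof+/- mice Mof heterozygous, with no other allele or treatment in the labels. The MOF antibody given in the labels is not one of those that the study's reporting summary lists for ChIP-seq, so which antibody the peaks rest on is unsure. The labels name 12 libraries in 6 groups of 2, covering chromatin pulled down with a MOF or a histone H3 antibody and the input for both genotypes, and the data used here are 1 list of MOF peaks per genotype. Neither list carries replicate values, so a difference between the genotypes could not be set against the spread between animals, and no test was made. The tissue is a mixture of cells, and fewer cells with MOF at a site cannot be told apart from less MOF per cell.

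Janus kinases sit on the inner side of cytokine and hormone receptors. When a ligand brings receptor chains together, the kinases phosphorylate each other, the receptor and the STAT proteins, which then pair, enter the nucleus and bind DNA. In adipose tissue this route is known to carry signals of growth hormone, leptin, interferons and interleukins, and it is damped by SOCS proteins, PIAS proteins and tyrosine phosphatases. Many STAT dimers bind the element TTCNNNGAA, called GAS, while STAT6 dimers favour the same element with a spacer of 4 bases and the interferon complex with STAT2 binds another element. GAS and the form with a spacer of 4 bases were searched, and each is its own reverse complement. The element of the STAT2 complex was not searched.

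The sequences that follow are 151-bp windows centred on peak summits, taken from GRCm38 and written in the direction of transcription of the gene. Windows that overlap an untranslated region were left out, among them those at the strongest peaks of Jak1 and Jak2. The first 4 are shown for their CpG sites, in capitals. They are the strongest remaining summits within 1 kb of a start of Stat3, Stat4 and Jak1, and the strongest Jak1 summit away from a start. None of the 4 windows holds a start site.

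Stat3, chr11:100939027-100939177, minus strand: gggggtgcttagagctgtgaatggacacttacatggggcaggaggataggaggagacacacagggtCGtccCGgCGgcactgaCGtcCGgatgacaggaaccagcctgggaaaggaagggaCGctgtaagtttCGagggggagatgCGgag
Stat4, chr1:52008808-52008958, plus strand: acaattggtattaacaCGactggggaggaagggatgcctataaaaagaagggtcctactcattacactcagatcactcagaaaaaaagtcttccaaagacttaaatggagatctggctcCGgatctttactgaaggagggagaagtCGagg
Jak1 beside its internal starts, chr4:101185219-101185369, minus strand: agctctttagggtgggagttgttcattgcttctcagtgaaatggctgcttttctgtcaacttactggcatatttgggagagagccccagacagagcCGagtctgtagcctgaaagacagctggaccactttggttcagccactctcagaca
Jak1 intron, chr4:101182673-101182823, minus strand: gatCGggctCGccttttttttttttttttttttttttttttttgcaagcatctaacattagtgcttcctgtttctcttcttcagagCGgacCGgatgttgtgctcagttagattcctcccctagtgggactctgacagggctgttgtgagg

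These windows held 8, 3, 1 and 4 CpG sites. The Jak1 intron window also held a run of 30 identical bases. Runs of at least 15 identical bases stood in 2 of the 43 windows at these genes (4.65%) and in 1.33% of the windows of all Mof+/+ peaks.

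A search of the 43 windows for TTCNNNGAA found it in 3, and these are printed next with the element in capitals, since they are the places where the sequence that STAT dimers bind lay under a MOF summit of a Stat or Jak gene.

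Stat3 intron, chr11:100934788-100934938, minus strand: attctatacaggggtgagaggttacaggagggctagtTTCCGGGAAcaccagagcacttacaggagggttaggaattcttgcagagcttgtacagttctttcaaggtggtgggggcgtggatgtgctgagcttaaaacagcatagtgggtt
Stat4 intron, chr1:52019462-52019612, plus strand: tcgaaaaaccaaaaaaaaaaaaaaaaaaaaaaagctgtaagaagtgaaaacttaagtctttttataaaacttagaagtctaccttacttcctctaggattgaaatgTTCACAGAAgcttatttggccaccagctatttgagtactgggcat
Jak2 upstream, chr19:29251089-29251239, plus strand: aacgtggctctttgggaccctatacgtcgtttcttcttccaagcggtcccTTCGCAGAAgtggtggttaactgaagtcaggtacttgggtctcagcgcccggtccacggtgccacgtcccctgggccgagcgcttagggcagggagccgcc

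The Stat3 and Stat4 intron peaks with the element each had 13 fragments, a fold enrichment of 3.10 and a −log10 p-value of 4.70. The Stat4 intron window also held a run of 23 identical bases. The element was in 6.98% of the windows at these genes, beside 3.61% of the windows of all Mof+/+ peaks. Over whole peaks it was found in 11 of 43 (25.6%), beside 19.3% of all Mof+/+ peaks. RefSeq promoters, taken from 250 bases before to 50 after each start, gave 12 sequences on GRCm38 for these genes, with all 9 genes matched. None of the 12 held the element, beside 8.30% of 32851 promoters. The element with a spacer of 4 bases was in 0 of the 43 windows, beside 3.17% of all, and in 8 of the 43 peaks (18.6%), beside 16.6% of all. A match of letters is a description and not a bound site.

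All 9 genes carried a Mof+/+ peak within 1 kb of a start site. The same was counted for 41.0% of all protein-coding genes. By the wider rule with the gene body, 9 of 9 genes and 44.5% of all protein-coding genes had a Mof+/+ peak. In the Mof+/- list, 0 of 9 genes had a peak within 1 kb of a start, beside 1.32% of all protein-coding genes. By the wider rule 1 of 9 did, which was Stat6, beside 1.89% of all protein-coding genes. So few genes have a Mof+/- peak in all that a count of 0 or 1 among 9 says nothing particular to these genes. Of the 43 Mof+/+ peaks, 1 overlapped a Mof+/- peak, while 2.44% of all Mof+/+ peaks did.

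The strength of a peak is given by the caller's fold enrichment. It divides the fragments at the summit by the background that the caller expects there from the input, after adding 1 to both. From the fold enrichment and the p-value the whole number of fragments was recovered. At these genes the fold enrichment of Mof+/+ peaks ran from 2.44 to 6.19 with a median of 3.24, beside a median of 3.40 over the whole list. The summits held 12 to 27 fragments, with a median of 16, the same as the list's median of 16. Peaks were 269 to 4340 bp wide with a median of 506 bp, beside 609 bp for the list. The 17 peaks within 1 kb of a start were at a median of 4.36, and the 26 others at 2.98. Over the whole list, 51.3% of peaks lay within 1 kb of a start of a protein-coding gene. Of the 17, 13 lay at the start of a coding transcript, and 4 only at the start of a non-coding or retained-intron transcript. By position of the summit, 33 of the 43 lay in introns, 6 in untranslated regions, 2 in exons of non-coding transcripts and 2 outside genes, a division that the rule partly sets, since it takes in whole gene bodies.

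**Figure D1:**
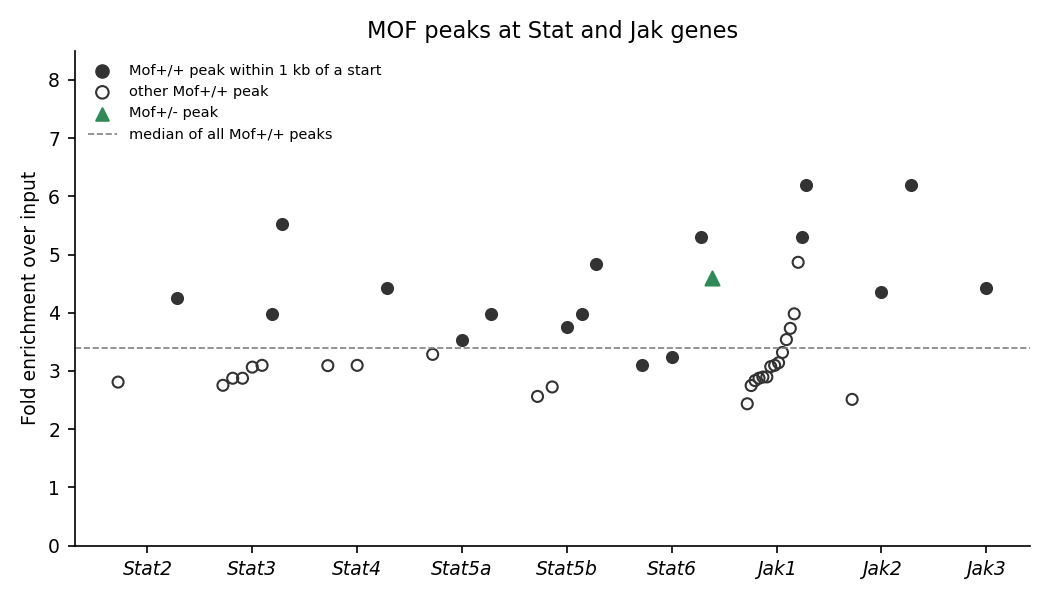
Fold enrichment over input (vertical axis) of each MOF peak counted for the 9 genes (horizontal axis), with filled points for Mof+/+ peaks within 1 kb of a start site, open points for other Mof+/+ peaks, a triangle for the Mof+/- peak and a dashed line at the median of all Mof+/+ peaks (3.40). The strongest peak of each gene is a filled point, Jak1 has 16 points, and the only triangle is at Stat6 (4.60).

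The strongest peak near a start site can be ordered across the genes, with a 95% exact Poisson interval of the fragments that covers counting error only. Jak1 and Jak2 came first at 6.19 (4.16 to 8.91), followed by Stat3 at 5.53 (3.62 to 8.12), Stat6 at 5.31 (3.45 to 7.86) and Stat5b at 4.83 (3.16 to 7.09). Stat4 and Jak3 stood at 4.42 (2.75 to 6.78), Stat2 at 4.25 (2.65 to 6.52) and Stat5a last at 3.98 (2.41 to 6.24). In 0 of the 36 pairs of genes were the intervals apart, so no neighbours in this order differed beyond counting error. The median of the 9 values was 4.83, beside 3.98 over the 9003 coding genes with such a peak, and 8 of the 9 lay above that median.

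**Figure D2:**
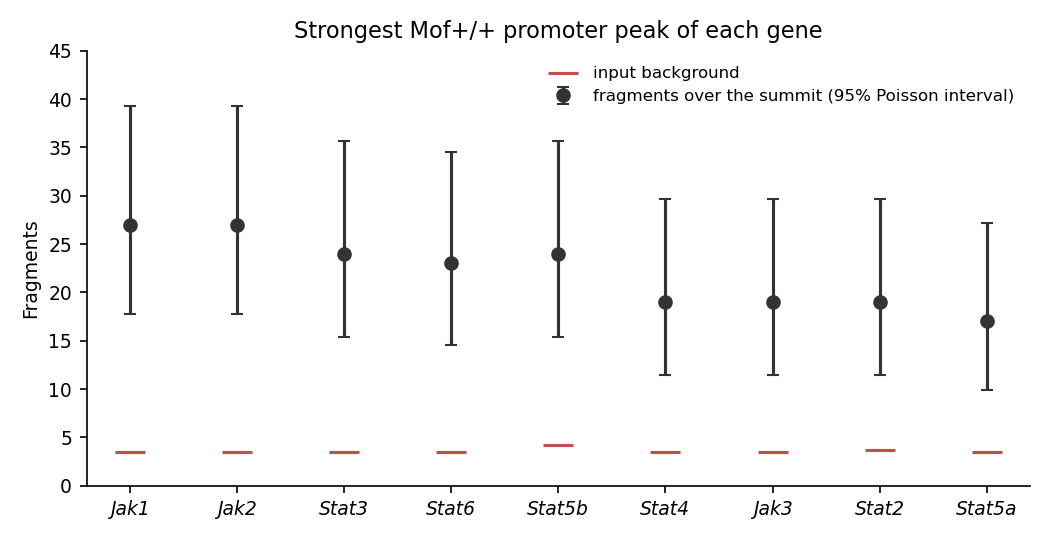
Fragments over the summit of the strongest Mof+/+ peak within 1 kb of a start site (points, vertical axis), with their 95% exact Poisson interval (bars). Red dashes are the background that the caller used there, and the 9 genes are in order of fold enrichment. Counts run from 17 for Stat5a to 27 for Jak1 and Jak2 over backgrounds of 3.52 to 4.17, and all intervals overlap. A background of 3.52 is the lowest of the whole Mof+/+ list and is not input counted at that base.

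Among the kinases, Jak1 had the most peaks. JAK1 pairs with other Janus kinases at receptors for interferons and many interleukins. Its gene (ENSMUSG00000028530.14, chr4:101152367-101265282, minus strand) is 112.9 kb long and carried 16 Mof+/+ peaks, which is 37.2% of the 43. These covered 14217 bp or 12.6% of the gene body. Of all coding genes, 31 had more peaks in the body. Among the 1400 coding genes of 84.7 to 141 kb the median was 1 peak, and 15 genes, Jak1 included, had as many as Jak1 or more.

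The strongest Jak1 peak stood at the start, at chr4:101264579-101265212, with 27 fragments over a background of 3.52. Its summit lay 231 bp into the gene from the coding start, in an untranslated region. Only the peak at Jak2 was as strong among the 43. The widest peak of all 9 genes lay inside Jak1, 79979 bp from the coding start by its summit, at chr4:101184103-101188442. It spanned 4340 bp, had a fold enrichment of 5.31 on 23 fragments, and covered the starts of the processed transcripts Jak1-204 and Jak1-205. Its neighbour at chr4:101182239-101183185 had a fold enrichment of 4.87 in an intron. The 14 Jak1 peaks away from start sites all had their summits in introns, with fold enrichments of 2.44 to 4.87 and a median of 3.09. The weakest of them had a −log10 p-value of 3.64, beside 3.25 for the weakest peak of the whole Mof+/+ list. The Mof+/- list had no peak in or near Jak1, the nearest being 1492 kb away.

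Jak2 had a peak on either side of its first start site. JAK2 serves the receptors for growth hormone, leptin, prolactin and erythropoietin. The gene (ENSMUSG00000024789.13, chr19:29251828-29313080, plus strand) had the stronger peak at chr19:29251877-29252406, with 27 fragments, a fold enrichment of 6.19 and the summit 274 bp before the start of the coding transcript Jak2-204. The weaker one, at chr19:29251053-29251478, had 19 fragments and a fold enrichment of 4.36, and its summit lay 664 bp before the start of Jak2-201. The latter is the window printed above with a GAS element. A further peak, in an intron, had 12 fragments and a fold enrichment of 2.51. Jak2 was thus the kinase gene with the fewest peaks per 10 kb of body, 0.327, beside 0.700 for Jak3 and 1.42 for Jak1.

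Jak3 had 1 peak. JAK3 associates with the common gamma chain of interleukin receptors and is mainly found in lymphocytes. The peak stood at the start of the gene (ENSMUSG00000031805.17, chr8:71676296-71690575, plus strand), at chr8:71676446-71677338, with 19 fragments and a fold enrichment of 4.42. Its summit lay 318 bp from the coding start, in an intron. The nearest Mof+/- peak was 3579 kb from Jak2 and 13287 kb from Jak3.

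Stat5b, Stat5a and Stat3 lie side by side on chromosome 11, in 158.8 kb, and are given as one locus. STAT5A and STAT5B are near-identical proteins that act downstream of growth hormone and prolactin, and STAT3 acts downstream of leptin and the interleukin 6 family. The locus carried 15 Mof+/+ peaks and 0 Mof+/- peaks, and the nearest Mof+/- peak to any of the 3 genes was 69.0 kb beyond Stat3. The starts of Stat5b and Stat5a face away from each other over 8627 bp, while Stat5a and Stat3 share 72 bp at their ends. Each of the 3 genes had its strongest peak within 1 kb of a coding start.

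At Stat3 (ENSMUSG00000004040.16, chr11:100885098-100939540, minus strand) the start peak at chr11:100938897-100940017 had 24 fragments and a fold enrichment of 5.53, the highest of the Stat genes. The other 6 peaks of Stat3 ran from 2.75 to 3.98. The strongest of them, at chr11:100893244-100893749, covered the start of Stat3-210, a non-coding transcript. Of 2264 coding genes of similar length, 44 had at least as many peaks in the body as the 7 of Stat3.

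Stat5a (ENSMUSG00000004043.14, chr11:100859351-100885169, plus strand) had 2 peaks around its start sites. The stronger, at chr11:100859926-100861183, had 17 fragments and a fold enrichment of 3.98, with its summit at the start of the coding transcript Stat5a-206. The other, at chr11:100858871-100859260, had 15 fragments and a fold enrichment of 3.54 and lay before the gene, with the summit 359 bp upstream of Stat5a-201. A further peak in an intron had a fold enrichment of 3.29.

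The adjoining Stat5b gene (ENSMUSG00000020919.11, chr11:100780731-100850724, minus strand) had peaks at both of its groups of start sites. At the first, chr11:100849109-100850954 had 24 fragments over a background of 4.17 and a fold enrichment of 4.83. At the second, which lies inside the gene and starts the coding transcript Stat5b-202, a peak of 3070 bp at chr11:100822181-100825250 had a fold enrichment of 3.75, and the short peak beside it at chr11:100821466-100821770 one of 3.98. Stat5a and Stat5b thus differed in fold enrichment at their main starts by less than their counting intervals.

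**Figure D3:**
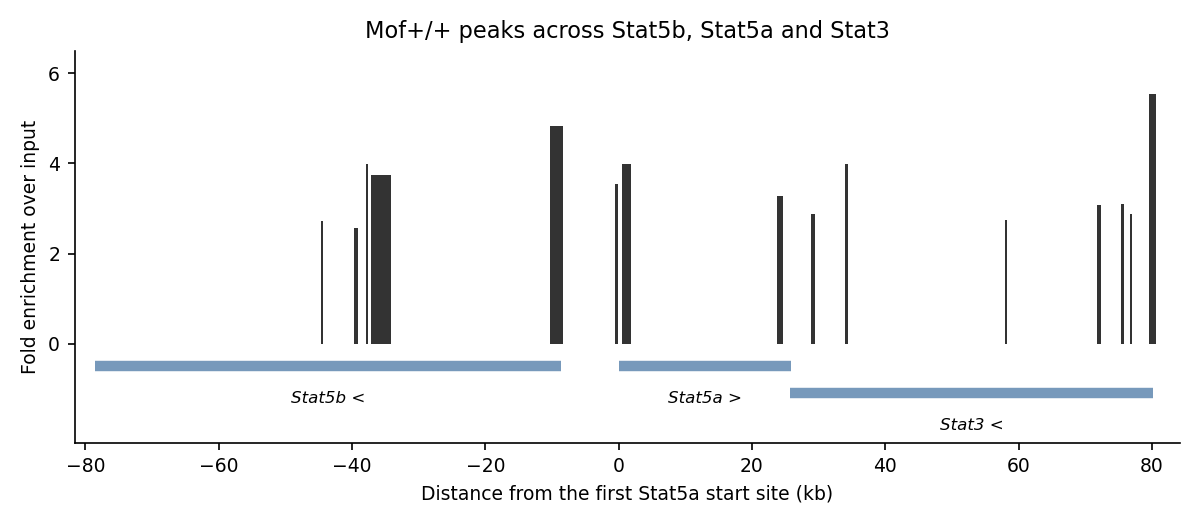
Mof+/+ peaks across Stat5b, Stat5a and Stat3, drawn to scale as boxes whose width is the peak and whose height is the fold enrichment (vertical axis), against distance from the first Stat5a start site in kb (horizontal axis). Blue bars mark the genes and the signs > and < their direction. Of the 15 peaks, the tallest are at the Stat3 start (5.53) and the Stat5b start (4.83), and no Mof+/- peak falls in the locus.

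Stat6 was the only gene of the 9 with a Mof+/- peak, and that peak stood past its 3′ end. STAT6 carries interleukin 4 and interleukin 13 signals. At the start of the gene (ENSMUSG00000002147.18, chr10:127642986-127660957, plus strand), a Mof+/+ peak of 1849 bp at chr10:127642066-127643914 had 23 fragments and a fold enrichment of 5.31. No Mof+/- peak was listed there. A Mof+/+ peak at chr10:127655884-127656265, near the start of a non-coding transcript, had a fold enrichment of 3.10.

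At the 3′ end both lists had a peak. In Mof+/+ it was chr10:127660158-127662046, with 22 fragments over a background of 6.11, the highest background among the 43, and a fold enrichment of 3.24 (2.08 to 4.83). In Mof+/- it was chr10:127661235-127662046, with 14 fragments over a background of 2.26 and a fold enrichment of 4.60 (2.65 to 7.51). The intervals overlap. Both peaks ended at the same base, their summits were 432 bp apart, and the Mof+/- peak was 43.0% as long as the Mof+/+ peak. The Mof+/- peak began 278 bp past the end of Stat6, with its summit in an untranslated region of Nab2, which encodes a corepressor of EGR transcription factors and runs towards Stat6 with 40 bp of shared end. It met the rule only through the start of the retained-intron transcript Stat6-204, 2166 bp from its summit.

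**Figure D4:**
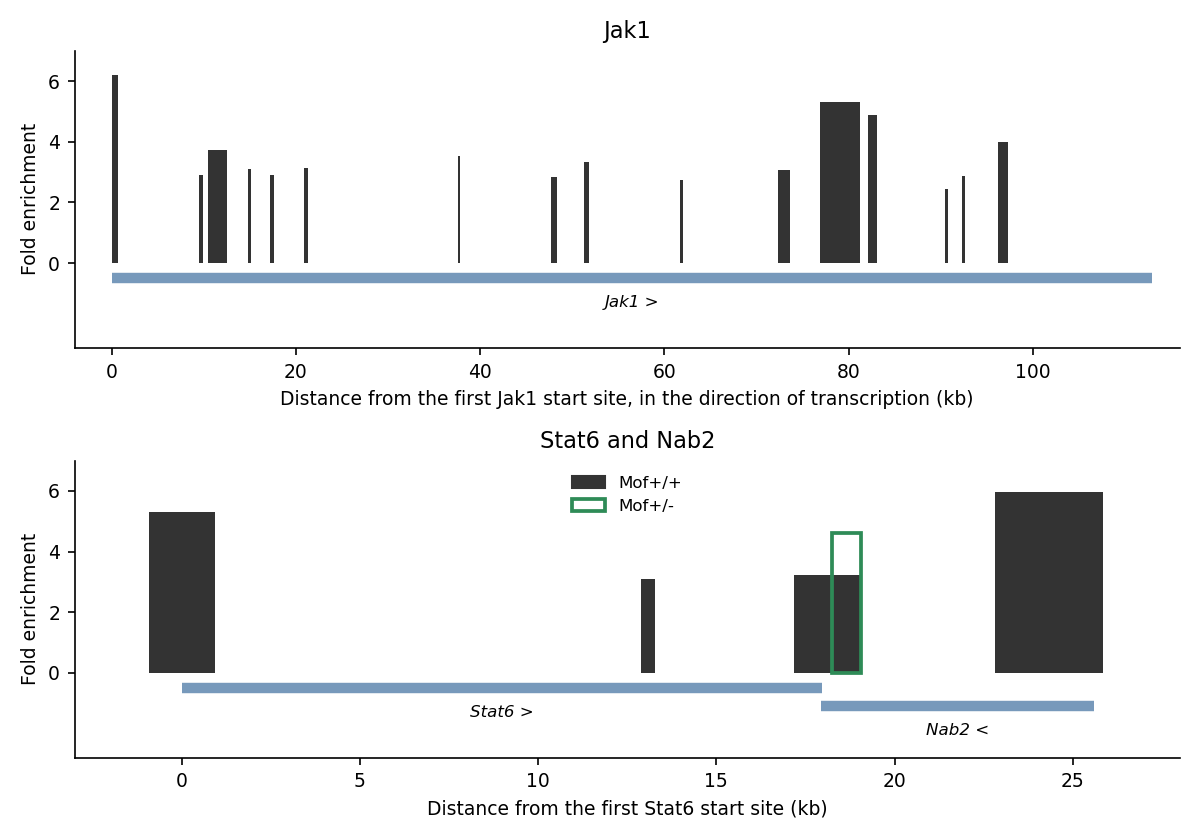
MOF peaks at Jak1 (upper panel, Mof+/+ only, as Mof+/- had none) and at Stat6 with its neighbour Nab2 (lower panel, Mof+/+ filled and Mof+/- outlined), drawn to scale with fold enrichment on the vertical axis and distance from the first start site in kb on the horizontal axis. Jak1 has 16 peaks spread along the gene, and the Mof+/- peak of 4.60 lies just past the end of Stat6, over the end of Nab2.

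Stat2 and Stat4 had 2 and 3 peaks. STAT2 forms the interferon complex with another STAT and IRF9, and STAT4 carries interleukin 12 signals in T cells and natural killer cells. At Stat2 (ENSMUSG00000040033.16, chr10:128270559-128292849, plus strand), 609.6 kb from Stat6, the start peak at chr10:128269946-128270778 had 19 fragments and a fold enrichment of 4.25, with its summit 75 bp past the start of Stat2-201. The other, in an intron, had 12 fragments and a fold enrichment of 2.81.

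Stat4 (ENSMUSG00000062939.11, chr1:51987148-52107189, plus strand) is the longest of the 9 genes, at 120042 bp, and had the fewest peaks per 10 kb of body, 0.250. Its peak at chr1:52008734-52009254 had 19 fragments and a fold enrichment of 4.42, and the summit lay 640 bp past a coding start inside the gene. The outermost start had no peak within 1 kb. The remaining 2 peaks, both in introns, had fold enrichments of 3.09 and 3.10. The nearest Mof+/- peak was 177 kb from Stat2 and 4866 kb from Stat4.

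CpG content was counted within 500 bp of the most CpG-rich coding start of each gene, and all coding genes were put into 10 bins of similar size by it. The share of coding genes with a Mof+/+ peak near a start rose from 1.46% in the lowest bin to 75.5% in the highest. Jak2 had 132 CpG sites and Stat5b 112, both in the highest bin. Jak1 had 87, in a bin with a share of 72.1%, and Stat3 had 66, with 63.8%. Stat5a with 58 and Stat2 with 51 fell where 56.0% had a peak, and Jak3 with 47 and Stat6 with 43 where 38.5% did. Stat4 stood apart with 12 CpG sites, in a bin where 10.6% of coding genes had a peak. In the summit windows the median was 8 CpG sites for peaks near a start of the 9 genes, 1 for their other peaks and 4 for all Mof+/+ peaks.

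**Figure D5:**
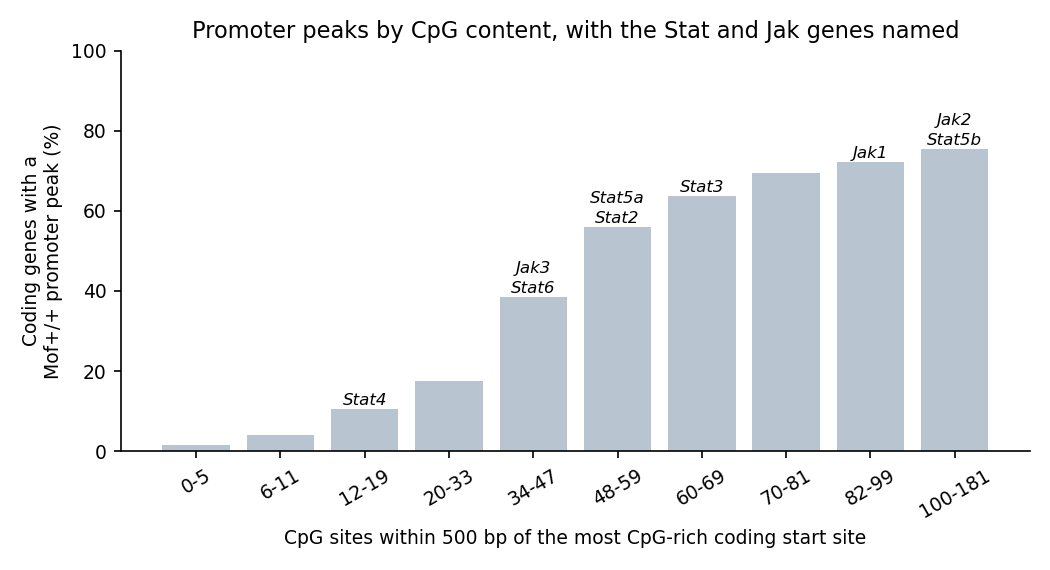
Share of coding genes with a Mof+/+ peak within 1 kb of a start site (bars, %) by bin of CpG content within 500 bp of the start (horizontal axis, number of CpG sites), with the 9 genes written over their bin. Stat4 sits over a bar of 10.6%, and Jak2 and Stat5b sit over the bar of 75.5%.

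Cutting of the chromatin by the enzyme CviKI-1 depends on RGCY sites, where R is A or G and Y is C or T. The peaks at the 9 genes held a median of 18.9 such sites per kb, with a range of 3.58 to 37.7, beside 21.2 for all Mof+/+ peaks. Repeats made up a median of 9.56% of them, beside 9.95%. The part of either in the peaks was not tested.

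The background of the lists differed. The lowest background was 3.52 fragments in Mof+/+ and 2.26 in Mof+/-, a ratio of 1.56. This ratio was taken as a stand-in for the depth of the libraries, which is unknown. Of the 43 peaks, 22 (51.2%) stood on the lowest Mof+/+ background, beside 49.9% of the list. The weakest peak in the Mof+/- list had a −log10 p-value of 4.72, and 26 of the 43 Mof+/+ peaks were past it, beside 68.6% of all Mof+/+ peaks. When fragments and background were also scaled down by the ratio, with fragments then rounded down, 14 peaks in 8 genes were past it. The same held for 30.1% of all Mof+/+ peaks. Stat5a was left out, its strongest peak reaching 4.60. It fell short through the rounding, since 11 fragments on the lowest Mof+/- background are enough and its unrounded count was just below that. Other peaks of 17 fragments on the lowest Mof+/+ background fell short in the same way. Whether MOF was absent from the starts of these genes in Mof+/- or below the threshold cannot be told from lists of called peaks.

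The other genes of the pathway were taken from a list of 45, drawn up with earlier results known. Of these, 34 (75.6%) had a Mof+/+ peak within 1 kb of a start, beside 41.0% of all protein-coding genes. The share over all coding genes reached 75.5% in the highest CpG bin, and the pathway genes were not compared within bins. Among the 19 receptor genes, 10 had one. Ifngr1, a chain of the interferon gamma receptor, stood at 8.18, its partner Ifngr2 at 6.96 and Ifnar2, a chain of the type I interferon receptor, at 6.64. The receptor genes of growth hormone (Ghr), leptin (Lepr), prolactin (Prlr) and erythropoietin (Epor) had no peak in either list, nor had Csf2rb, Csf3r and Osmr.

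Of the 16 genes for inhibitors, 15 had a peak near a start and Cish, a SOCS protein gene, had none. The strongest were those of Pias4 (6.64), a ligase that attaches SUMO to proteins, Ptpn6 (5.80), a tyrosine phosphatase of blood cells, and Sh2b3 (5.75), an adaptor that restrains JAK2 signalling. Of the 10 genes known as STAT targets, 9 had a peak near a start and Igf1 had none. Mcl1, a survival gene of the Bcl2 family, stood at 8.41, Ccnd2, a D-type cyclin, at 6.86 and Pim1, a serine kinase, at 5.99.

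In the Mof+/- list, 2 of the 45 genes had a peak near a start, Mcl1 at 3.99 and Pim1 at 4.29, and Ccnd2 had one in the wider rule at 6.44 on 20 fragments. The shares over all protein-coding genes were 1.32% near a start and 1.89% by the wider rule, so low that the absence of receptor and inhibitor genes from these 3 says nothing particular to those roles.

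The tissue label was set beside markers of 5 cell types, 10 genes each. In Mof+/+, 5 adipocyte genes had a peak near a start, beside 8 of B cells, 6 of T cells, 1 of endothelial cells and 1 of macrophages, where 41.0% of all protein-coding genes had one. By the wider rule with the gene body the counts were 9 for adipocytes, 10 for B cells, 8 for T cells, 2 for endothelial cells and 1 for macrophages, where 44.5% of all protein-coding genes had one, so the order of adipocyte and T cell genes turned with the rule. In Mof+/-, 1 B cell gene (Pax5) had one by either rule and the other lists had 0. The Mof+/+ list in which the 9 genes had their peaks thus also held peaks at genes of all 5 cell types, with the fewest at genes of endothelial cells and macrophages. The part of these cells in the peaks of the 9 genes was not tested.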

How the data were processed

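MOF ChIP-seq peaks from visceral white adipose tissue were used as the authors deposited them, 1 list per genotype. The methods of the study name snakePipes for mapping to GRCm38, and MACS2 with input as control and a q-value of 0.1 for the calls (version 2.1.1.20160309.3 in the submitters' processing notes). The fold enrichment, a ratio, and the −log10 p-value and −log10 q-value of each summit are the authors' deposited values. The methods also merge peaks within 1000 bp with BEDtools, but the lists still hold 3789 (Mof+/+) and 144 (Mof+/-) neighbouring pairs within that distance. Whether libraries were pooled before calling is not given in the sources used here. The design text speaks of 3 Mof+/- animals, and the labels and the reporting summary of 2. The depth of the libraries is unknown, and signal tracks and H3 libraries were not analysed here.

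The list whose name says het was taken as Mof+/- and the other, whose name gives no genotype, as Mof+/+, whose peak number in the study it matches on the assembled chromosomes. Members and gene lists were chosen with earlier results of these data known. Every member is named, and of the pathway genes the 3 with the highest Mof+/+ fold enrichment near a start in each role and all with a Mof+/- peak. Pathway genes named for having no peak, and Pax5, were chosen after their values were seen. Genes came from GENCODE M21, and counts over genes cover chromosomes 1 to 19, X and Y. Fragments and background were solved from the fold enrichment and p-value, with 99.9% of Mof+/+ and 98.9% of Mof+/- peaks matched within 0.001 on the −log10 scale, and intervals are exact Poisson. The solving was tested on simulated data. Python 3.11.15, numpy 2.4.6, pandas 2.3.3, scipy 1.17.1, pysam 0.24.0 and matplotlib 3.10.9 were used. Alternatives changed the q-value, the windows, the start sites, the overlap and the scale of fragments and background.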

Additional observations from a re-analysis of the deposited data

How the results depend on the processing

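All 9 genes kept a Mof+/+ peak by the rule and near a start at each stricter q-value, window and choice of start sites tried. With the Mof+/+ list scaled to the Mof+/- background and scaled fragments rounded down, 8 did. That alternative was chosen after seeing the data. The number of Mof+/+ peaks was 21 at a q-value of at most 0.001, 26 past the weakest Mof+/- p-value and 14 in the scaled list. With the gene body only, or with starts of protein-coding transcripts only, 0 of the 9 genes had a Mof+/- peak. Within 3 kb of a start 1 did. With an overlap of 50% of both peaks, 0 of the 43 peaks overlapped a Mof+/- peak. At a q-value of at most 0.001, 0 of the pathway genes had a Mof+/- peak near a start. Of 48 alternatives, 40 stayed within 1.5 times the reported count and these 8 did not. No paired analysis was possible because a genotype has only 1 list and its columns carry no replicate number, and leaving out a replicate was not run for the same reason. Backgrounds started from 2.26 fragments for Mof+/- and from 3.52 for Mof+/+, and library totals were not analysed here.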
